A study of Mus musculus with 4 samples.

Results

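The effect of adding high fat to an atherogenic diet for 24 weeks was read from 2 of the 4 microarrays of a mouse liver study. The high-fat array carried liver RNA of male C57Bl/6J mice fed the atherogenic diet with added high fat for 24 weeks. The plain array carried liver RNA of male C57Bl/6J mice fed the atherogenic diet alone for 24 weeks. On both arrays the diet RNA was labelled with Cy5 and was set against Cy3-labelled liver RNA of male C57Bl/6J mice on standard chow for 24 weeks. The other 2 arrays held the same diets at 6 weeks, and the labels give no duration for the chow of the plain 6-week array. RNA was amplified before cDNA was made, each condition had 1 array, and no array was dye-swapped. The composition of the diets, the number of mice behind each RNA and any sharing of chow RNA between arrays are likewise not given in the sources used here. With 1 array a side there is no error between animals, so the differences are sizes and none was tested.

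The liver takes up cholesterol and fat from the diet, makes and exports lipoproteins, and disposes of cholesterol mainly by turning it into bile acids. Hepatocytes also carry the cytochromes, carboxylesterases and conjugating enzymes that process lipids and foreign compounds. In a liver under lasting lipid load, macrophages and neutrophils can enter, stellate cells can lay down collagen, and bile duct cells can multiply. Transcripts of these cells are all measured together in whole-liver RNA, where fewer cells of a type and less RNA per cell cannot be told apart.

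A gene's value is the log2 ratio of diet over chow, averaged over the probes that name that gene alone. The difference is the value on the high-fat array minus the value on the plain array, so a positive difference means a higher ratio over chow with added high fat. Each ratio rests on the chow RNA of its own array, so a difference in chow signal cannot be told apart from one in diet RNA. Higher and lower with high fat are used in this sense below. Of 28845 probes, 28532 had a value on both 24-week arrays. Of these, 17514 named 1 gene and gave 13878 genes. The median difference of all genes was -0.07, with 42.1% of genes above 0 and 57.6% below, and the SD across genes was 0.371. Among the 2834 genes with several probes, probes of a gene differed with a pooled SD of 0.363, which is technical spread within these 2 arrays. Reading the deposited values as base 10 logarithms is an inference from their spread, and every fold rests on it. The spread of the ratios was smaller on the high-fat array, with a median absolute deviation of 0.179, than on the plain array, with 0.256. Differences are therefore also given after both arrays were centred and scaled to the same median absolute deviation of 0.218, called scaled below. That scaling multiplied the high-fat ratios by 1.21 and the plain ratios by 0.851, and moved the median difference of all genes to -0.10. Ratios show no level, so the liver identity of the RNA could not be read from marker levels. Of 14 hepatocyte markers listed, 13 had a value.

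More genes were lower than higher with added high fat, but over all probes, with or without a listed gene, the split was nearer to even. Of 28532 probes, 276 (0.967%) were at least 2-fold higher and 314 (1.1%) at least 2-fold lower. At least 2-fold higher with high fat were 59 genes, 0.425% of all genes, and at least 2-fold lower were 162, 1.17% of all genes. After scaling the counts were 79 (0.569%) and 201 (1.45%), and 48 higher (0.346%) and 115 lower genes (0.829%) were counted both with and without scaling. With each array centred within groups of probe identifiers, a setting described with the probe letters, 79 (0.569%) were higher and 112 (0.807%) lower, a split nearer to even. For the list counts below, the deposited shares over all genes were 0.425% higher, 1.17% lower, 42.1% above 0 and 57.6% below 0. A list count near these shares says nothing particular about that list. At the edge of the count Cox6c, a subunit of cytochrome c oxidase, stood just inside at 1.0 and the desaturase gene Scd2 just outside at the same rounded value. On the lower side the predicted gene 1700084J12Rik was just inside at -1.0 and Cbs, the first enzyme of the transsulfuration route, was just outside. Chow lay between the diets for 47 of the 59 higher genes and 97 of the 162 lower genes. Of the 59 higher genes, 7 were below chow with high fat and 54 were below chow with the plain diet, with medians of 0.54 and -0.68. Of the 162 lower genes, 114 were below chow with high fat and 17 were below chow with the plain diet, with medians of -0.36 and 0.84. The high-fat value was the closer to chow for 57.6% of the higher genes and 59.9% of the lower genes. After scaling these shares were 19.0% and 23.9%, so which diet lay nearer to chow depends on the spread given to each array.

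**Figure D1:**
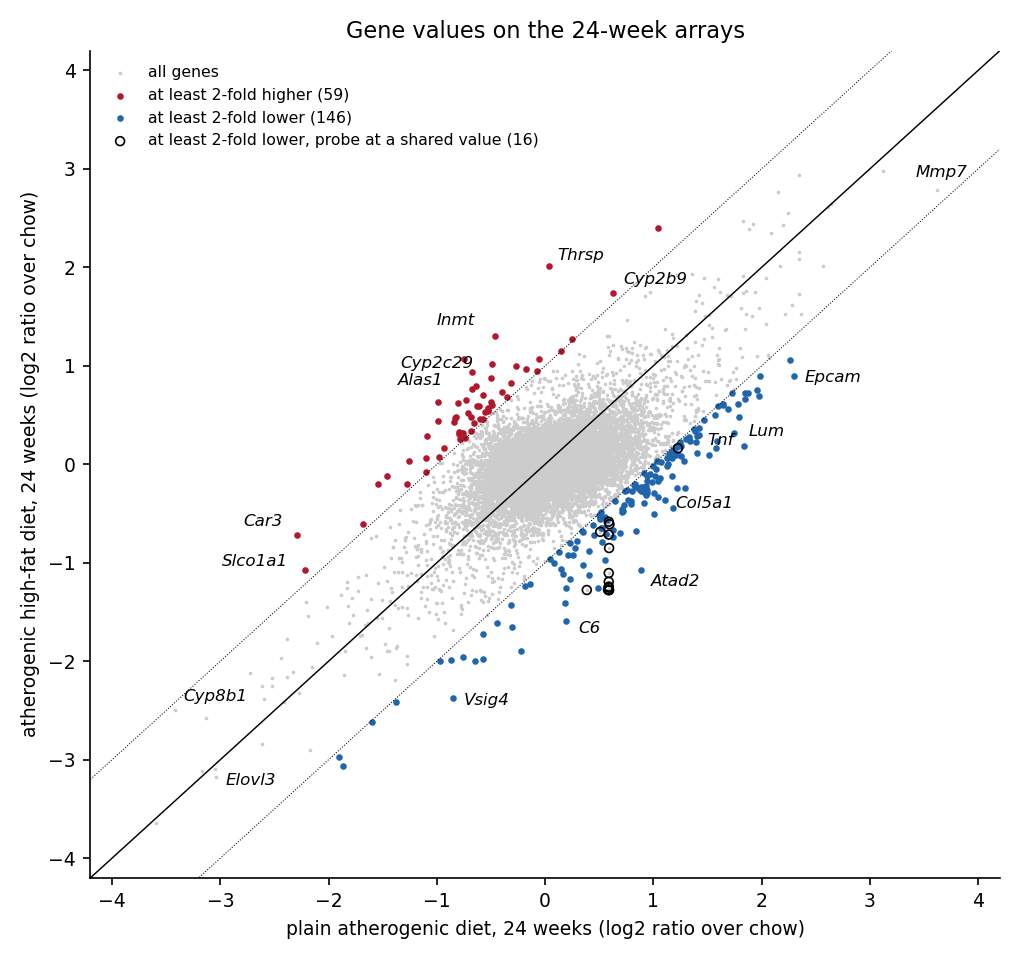
Each point is a gene, with its log2 ratio over chow on the high-fat array on the vertical axis and on the plain array on the horizontal axis, both at 24 weeks. The solid line marks equal values and the dotted lines a 2-fold difference. The 59 genes at least 2-fold higher with high fat are red, the 162 lower genes are blue or, for the 16 with a probe at a value shared by many probes, open circles. Of the labelled genes, Thrsp and Inmt stand furthest above the line, and Atad2 and C6 furthest below it.

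Among the genes named here, the largest positive difference was that of Thrsp, which encodes the thyroid hormone responsive protein of lipogenic tissues. Its log2 ratio was 2.01 on the high-fat array and 0.04 on the plain array, a difference of 1.98 or 3.94-fold. The plain value lay at the chow level, so of the 24-week arrays the high-fat array alone was high, and the scaled difference was 2.37. The other genes of fatty acid synthesis did not share this size. Of 22 measured genes 1, Thrsp, was at least 2-fold higher and 0 were lower, with a median difference of 0.03 against -0.07 for all genes. The desaturase gene Scd1 was 1.10 with high fat and 1.14 with the plain diet, above chow on both arrays by nearly the same ratio. The elongase gene Elovl3 was at -3.09 with high fat and -3.05 with the plain diet, far below chow on both. Its difference of -0.04 became -1.20 after scaling, because its values lay far from 0 on arrays of unequal spread.

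Promoter sequences are shown for 4 genes with differences discussed here, Thrsp and the cytochrome gene Cyp2c29, which were higher, and the growth factor gene Tgfb2 and the epithelial adhesion gene Epcam, which were lower. Each is the 250 bases before the gene's start in RefSeq, build GRCm38.p6, written 5′ to 3′ on the gene's own strand. The regions are chr7:97417551-97417800 (minus strand) for Thrsp, chr19:39286835-39287084 (plus strand) for Cyp2c29, chr1:186705990-186706239 (minus strand) for Tgfb2 and chr17:87635729-87635978 (plus strand) for Epcam. Capitals mark matches on either strand to the TATA box motif TATAAA, the CCAAT box motif CCAAT, the E-box motif CACGTG, the nuclear receptor hexamer AGGTCA and the AP-1 motif TGACTCA, none of which share letters at a place marked here.
Thrsp: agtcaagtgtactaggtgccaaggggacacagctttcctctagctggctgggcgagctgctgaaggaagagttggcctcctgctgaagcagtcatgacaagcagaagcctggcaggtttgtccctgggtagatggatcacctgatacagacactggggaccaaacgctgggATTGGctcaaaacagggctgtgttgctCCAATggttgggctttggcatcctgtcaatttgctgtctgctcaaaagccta
Cyp2c29: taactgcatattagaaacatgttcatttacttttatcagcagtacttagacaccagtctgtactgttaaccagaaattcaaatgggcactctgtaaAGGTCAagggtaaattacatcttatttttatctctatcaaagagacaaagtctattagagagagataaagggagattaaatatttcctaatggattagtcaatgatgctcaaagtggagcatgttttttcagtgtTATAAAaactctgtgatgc
Tgfb2: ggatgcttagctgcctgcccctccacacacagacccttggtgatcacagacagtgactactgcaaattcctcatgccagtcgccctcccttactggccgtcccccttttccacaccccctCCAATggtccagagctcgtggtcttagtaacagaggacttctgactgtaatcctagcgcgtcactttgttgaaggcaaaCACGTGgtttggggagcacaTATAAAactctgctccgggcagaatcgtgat
Epcam: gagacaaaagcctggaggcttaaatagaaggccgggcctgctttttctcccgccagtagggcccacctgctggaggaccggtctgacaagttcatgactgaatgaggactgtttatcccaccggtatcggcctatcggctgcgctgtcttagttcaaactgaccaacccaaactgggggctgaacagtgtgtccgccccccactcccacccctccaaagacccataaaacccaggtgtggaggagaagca
Thrsp held CCAAT 79 bases before its start on the minus strand of the gene, written ATTGG, and 52 bases before it on the plus strand. Cyp2c29 held AGGTCA, the hexamer bound by many nuclear receptors, 154 bases before its start and TATAAA 19 bases before it. Tgfb2 held CCAAT 130 bases, CACGTG 51 bases and TATAAA 31 bases before its start, and these letters did not occur in the window of Epcam. Of 27025 RefSeq promoter windows of this length, 34.5% held CCAAT, 13.8% held AGGTCA, 6.05% held CACGTG and 4.43% held TGACTCA, and 3504 of them held TATAAA. The matches describe the letters of the windows and were not linked to the differences by any test.

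Inmt, an amine methyltransferase, was 1.31 on the high-fat array and -0.47 on the plain array, a difference of 1.77 (3.41-fold). Alas1, the first and rate-limiting enzyme of heme synthesis in the liver, was 0.77 with high fat and -0.67 with the plain diet, a difference of 1.44 (2.71-fold). Both genes were above chow with high fat and below chow with the plain diet, and both kept their size after scaling, at 1.94 and 1.46. Cyp2c29, a drug-metabolising cytochrome of mouse liver, was 1.02 with high fat and -0.49 with the plain diet, a difference of 1.51 (2.86-fold). Cyp2f2, a cytochrome of lung and liver, was 0.07 with high fat and -1.10 with the plain diet, a difference of 1.17. Here the high-fat value was at chow and the plain value was below it.

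Cyp2b19 was 1.07 with high fat and -0.06 with the plain diet, and Cyp2b9, a cytochrome with higher expression in female mouse liver, was 1.74 with high fat and 0.63 with the plain diet. Their differences were 1.13 and 1.12. Cyp2b10, the usual target of the drug receptor CAR, stood at 0.05 with high fat and 0.10 with the plain diet, so the Cyp2b genes did not move together. Probes of near-identical cytochrome genes may share transcripts, and the annotation used here does not resolve that. Of 27 measured members of cytochrome P450 families 1 to 3, 4 were at least 2-fold higher and 0 were lower, and 19 differences were above 0. Over all genes 0.425% were higher, 1.17% were lower and 42.1% were above 0. The list median was 0.18, against -0.07 for all genes. No other list of the 53 had more than 1 member counted as higher on the deposited scale, and the 4 members here were Cyp2c29, Cyp2f2, Cyp2b19 and Cyp2b9. After scaling 3 were past 2-fold, with Cyp2f2 at 0.98, and the median was 0.30. Among phase II conjugation enzymes 0 of 43 were higher and 2 were lower, with a median of 0.18. After scaling 3 were higher and 2 lower, with a median of 0.17. The 2 lower genes were the sulfotransferase Sult1d1 (0.08 with high fat and 1.25 with the plain diet) and Mgst1, whose value is described with the shared values.

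Carboxylesterases, which hydrolyse lipid esters and drugs, had no member past 2-fold, but 10 of 15 differences were above 0 and the median was 0.32. Ces1f was -0.73 with high fat and -1.57 with the plain diet, and Ces1d was -0.35 with high fat and -1.16 with the plain diet, differences of 0.84 and 0.81. Both esterases were below chow on both arrays and less so with high fat. Pon3 and Pon2, the paraoxonases counted with this list, had differences of -0.55 and -0.43 and went the other way.

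Bile acid synthesis genes had a median difference of 0.21, with 12 of 17 differences above 0, 1 gene at least 2-fold higher and 0 lower. The gene past 2-fold was Akr1c6, an aldo-keto reductase that also acts on steroids, at 0.88 with high fat and -0.50 with the plain diet. Its difference was 1.38, or 2.60-fold. Cyp8b1, the sterol hydroxylase that sets the share of cholic acid, was -2.49 with high fat and -3.42 with the plain diet, a difference of 0.93. Both values lay far below chow, and the scaled difference was -0.15, so its direction depends on the scaling. Slc27a5, which activates bile acids for conjugation, was -0.18 with high fat and -0.94 with the plain diet. Cyp7a1, the rate-limiting enzyme of the classic pathway, was -0.20 with high fat and -0.65 with the plain diet, a difference of 0.45. Cyp7b1, of the alternative pathway, was -1.81 with high fat and -2.11 with the plain diet, and its difference of 0.29 became -0.45 after scaling.

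Among 14 measured transporters of bile acids and organic anions, 1 was at least 2-fold higher and 0 were lower, with a median of 0.16. Slco1a1, an organic anion importer with higher expression in males, was -1.07 with high fat and -2.22 with the plain diet. Its difference of 1.14 fell below the 2-fold mark after scaling, at 0.55. The cholesterol synthesis list had a median of 0.09, or -0.01 after scaling, with 1 of 17 genes higher and 0 lower. That gene was Idi1, the isopentenyl diphosphate isomerase, at -0.61 with high fat and -1.68 with the plain diet. Its difference was 1.07 and its scaled difference 0.65. Sterol efflux genes had a median of -0.12 with 0 of 14 past 2-fold. Lpl in that list had a difference of -0.84, from 1 probe at -1.48 and another at -0.19, so its probes did not give the same size.

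Car3, a carbonic anhydrase abundant in liver and fat, was -0.71 with high fat and -2.29 with the plain diet, a difference of 1.57 (2.98-fold), or 1.04 scaled. Pck1, the key enzyme of gluconeogenesis, was 0.26 with high fat and -0.79 with the plain diet, a difference of 1.05, or 0.95 scaled. Fatty acid uptake and droplet genes had 0 of 22 members past 2-fold and a median of 0.03. The intestinal-type fatty acid binding protein gene Fabp2 came nearest, at 0.66 with high fat and -0.31 with the plain diet. Cd36, a fatty acid importer, was 1.05 with high fat and 0.50 with the plain diet, and the droplet protein gene Plin2 was -0.60 and -0.38 in the same order. Mitochondrial fatty acid oxidation genes had a median of 0.18 with 0 of 23 past 2-fold, led by Eci2 at 0.41 with high fat and -0.44 with the plain diet. The Cyp4 fatty acid hydroxylases had a median of -0.05, with Cyp4a10 at -1.15 with high fat and -0.66 with the plain diet and Cyp4a14 at -1.86 and -1.38 in the same order. Neither list held a 2-fold difference, and the mitochondrial median was -0.00272 after scaling, so its direction depends on the scaling.

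Ribosomal protein genes of the cytosol gave the highest median of the 53 lists on the deposited scale, 0.37. None of the 67 measured genes passed 2-fold, but 56 differences were above 0 and 11 were below. The list medians were 0.66 with high fat and 0.31 with the plain diet, both above chow. Rps27 had the largest difference, at 0.87 with high fat and -0.04 with the plain diet, and Rps3 followed at 0.84 and -0.06 in the same order. The median was 0.50 after scaling. Respiratory chain and ATP synthase genes had a median of 0.19, with 51 of 70 differences above 0 and 1 gene at least 2-fold higher, Cox6c, at 0.27 with high fat and -0.74 with the plain diet. After scaling Cox6c was at 0.91, and 3 ribosomal protein genes were past 2-fold.

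The remaining genes among the 15 highest came from no single list. Nelfa, a subunit of the negative elongation factor of RNA polymerase, was 2.40 with high fat and 1.04 with the plain diet, a difference of 1.36 (2.56-fold), and was above chow on both arrays. Sema3c, a secreted guidance protein, was 0.44 with high fat and -0.99 with the plain diet, a difference of 1.43. Ctdnep1, a phosphatase of the nuclear envelope that acts on the lipin pathway, was 0.66 with high fat and -0.73 with the plain diet, a difference of 1.39. Sema3c and Ctdnep1 lay on opposite sides of chow, and their scaled differences were 1.33 and 1.38. Cysltr2, a leukotriene receptor, and Gtsf1, a germ cell factor of small RNA silencing, each had a difference of 1.31. Nat8f2, of the N-acetyltransferase family, was 0.28 with high fat and -1.09 with the plain diet, and the immunoglobulin gene segment Igkv8-23-1 was 0.62 and -0.80 in the same order. Each of these genes was read by 1 probe.

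**Figure D2:**
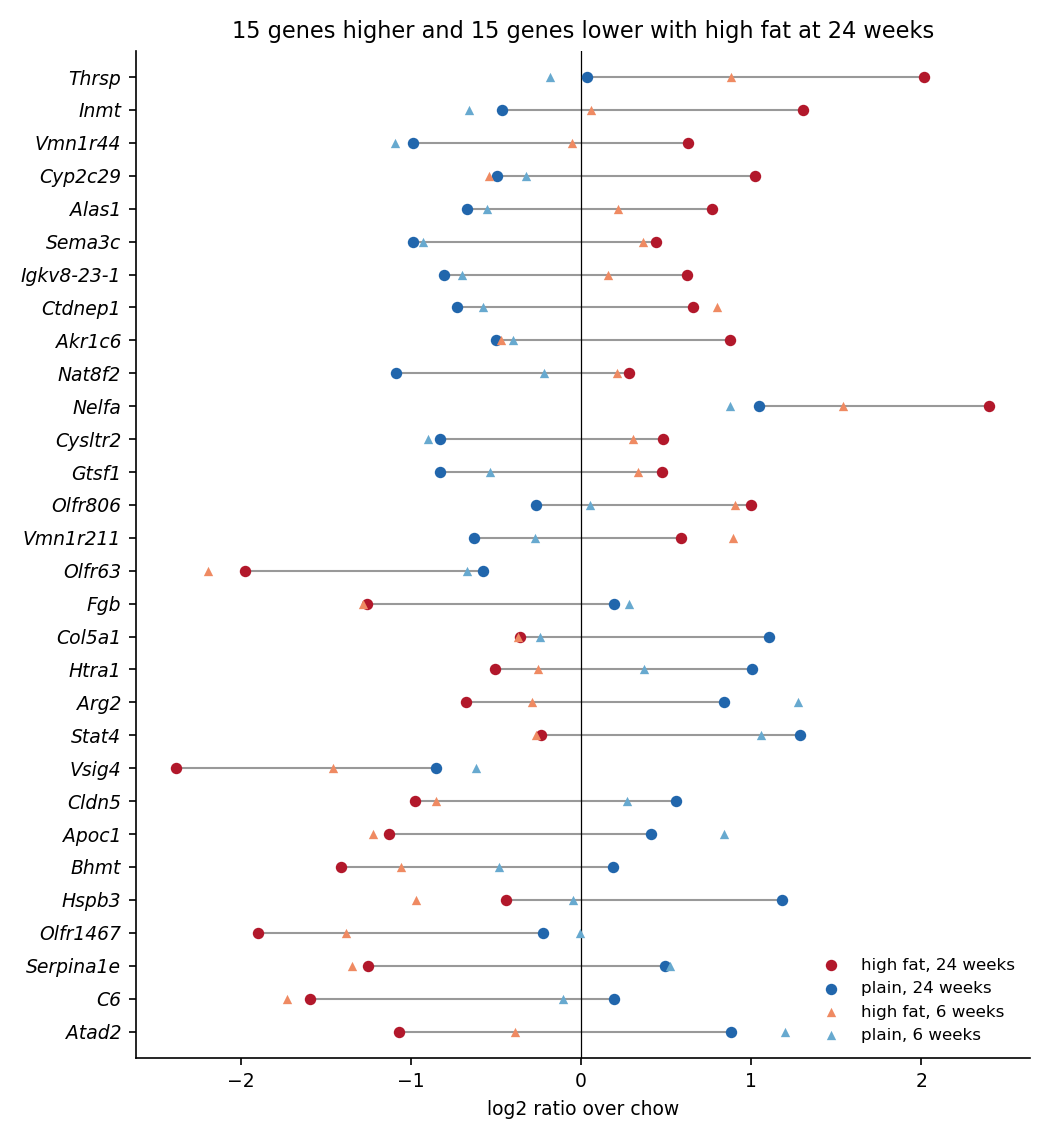
Rows are the 15 genes with the largest positive and the 15 with the largest negative differences by the naming rule, and the horizontal axis is the log2 ratio over chow. Red and blue circles joined by a line are the high-fat and plain arrays at 24 weeks, and orange and light blue triangles are the high-fat and plain arrays at 6 weeks. Most lines cross 0, the chow level, and the 6-week triangles keep the order of the circles in most rows, with Cyp2c29 and Akr1c6 as exceptions.

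Bile duct markers had the lowest median of the 53 lists on the deposited scale, -0.41, with 14 of 17 differences below 0, 2 genes at least 2-fold lower and 0 higher. Of all genes 57.6% were below 0 and 1.17% were at least 2-fold lower. Epcam, an epithelial adhesion molecule of bile duct and progenitor cells, was 0.90 with high fat and 2.30 with the plain diet, a difference of -1.40 (2.64-fold lower). Cd24a, a surface glycoprotein of the same cells, was 0.69 with high fat and 1.98 with the plain diet, a difference of -1.29. Both genes were above chow on both arrays and further above it with the plain diet. List medians were 0.61 with high fat and 0.91 with the plain diet. After scaling the list median was -0.23, and Epcam and Cd24a stood at -0.90 and -0.88, so no gene of the list was past 2-fold on that scale.

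In the list of matricellular proteins and proteoglycans 4 of 32 genes were at least 2-fold lower and 0 higher, with a median of -0.29. After scaling 2 were lower, with a median of -0.22. Counting any size, 26 of 32 differences were below 0, against 57.6% of all genes. Lum, a collagen-binding proteoglycan, was 0.48 with high fat and 1.79 with the plain diet, a difference of -1.31 (2.48-fold lower). Ogn, another small proteoglycan, was -0.79 with high fat and 0.52 with the plain diet, a difference of -1.32. Loxl1, which crosslinks elastin, was -0.04 with high fat and 1.03 with the plain diet. These genes were above chow with the plain diet. After scaling Ogn was at -1.44, and Lum (-0.98) and Loxl1 (-0.96) no longer passed 2-fold. The fourth gene, Loxl2, had probes at -1.87 and -0.52, the first of them at shared values on both arrays.

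Collagens had 21 of 25 differences below 0, but a small median of -0.12, with 1 gene at least 2-fold lower. This was Col5a1, a fibril-forming collagen chain, at -0.36 with high fat and 1.11 with the plain diet, a difference of -1.46 (2.76-fold lower). The main fibrillar collagens differed less. Col1a2 was 2.08 with high fat and 2.35 with the plain diet, and Col3a1, with probe differences between -0.83 and 0.22, was 1.0 and 1.13 in the same order. Col1a1 had 5 probes with differences between -1.24 and 0.50 and a mean of -0.28, within the spread of its probes. As gene means, Col1a2 and Col3a1 were therefore above chow on both arrays. Scaled differences were 0.49 for Col1a2, 0.20 for Col3a1 and -0.13 for Col1a1. Of the 3 probes of Col3a1, 1 was below chow on both arrays, at -0.08 with high fat and -0.27 with the plain diet.

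Stellate cell and TGF-beta genes had 21 of 25 differences below 0, a median of -0.24 and 1 gene at least 2-fold lower. This was Tgfb2, a profibrotic growth factor, at 0.17 with high fat and 1.57 with the plain diet, a difference of -1.41 (2.65-fold lower). Htra1, a secreted protease that acts on matrix and TGF-beta ligands, was -0.51 with high fat and 1.01 with the plain diet, a difference of -1.51. Metalloproteinases and their inhibitors had a median of -0.29 with 0 of 27 past 2-fold. Mmp7, an epithelial metalloproteinase, had the highest plain value among the genes named, at 2.79 with high fat and 3.62 with the plain diet. Its difference of -0.83 became 0.27 after scaling, so the direction for this gene depends on the scaling. Mmp8 and Mmp12, of neutrophils and macrophages, had differences of -0.96 and -0.87, and Timp1 was 0.37 with high fat and 0.69 with the plain diet.

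The macrophage lists had negative medians. Kupffer cell and complement C1q genes had 12 of 15 differences below 0, against 57.6% of all genes, a median of -0.24 and 1 gene at least 2-fold lower. Their scaled median was -0.14, close to the -0.10 of all genes, with 1 gene lower and 0 higher. Vsig4, a complement receptor of resident Kupffer cells, was -2.38 with high fat and -0.85 with the plain diet, a difference of -1.53 (2.88-fold lower). It was below chow on both arrays. Genes of lipid-associated and infiltrating macrophages had 23 of 32 differences below 0 and a median of -0.36, with 1 gene at least 2-fold lower and 1 higher. After scaling the median was -0.18, against -0.10 for all genes, with 1 gene lower and 3 higher, so its 2-fold counts gave no stable direction. Itgax, the CD11c integrin chain, was -0.23 with high fat and 0.84 with the plain diet, and Ly6c2, a monocyte surface protein, was 0.54 with high fat and -0.53 with the plain diet. Their differences were -1.07 and 1.07. Cybb, the catalytic subunit of the phagocyte NADPH oxidase, was 0.50 with high fat and 1.57 with the plain diet. It was the 1 gene of 6 in the oxidase list past 2-fold, with a difference of -1.06, but its scaled difference was -0.76 and the list then held 0 genes past 2-fold.

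Neutrophil granule genes had 4 of 19 members at least 2-fold lower, 0 higher and a median of -0.22, and after scaling 2 lower, 1 higher and a median of -0.25. Of all genes 1.17% were at least 2-fold lower, or 1.45% after scaling. The 4 genes were Ngp, at 0.32 with high fat and 1.75 with the plain diet, Anxa1 at 0.61 and 1.78, Chil3 at -0.22 and 0.93, and Camp at 0.10 and 1.15 in the same order. All 4 were above chow with the plain diet, and their differences lay between -1.43 and -1.04. After scaling Ngp (-1.14) and Chil3 (-1.09) stayed past 2-fold, and Anxa1 (-0.82) and Camp (-0.89) did not. The calprotectin genes were different. S100a8 was 2.64 on both arrays, and S100a9 was 2.98 with high fat and 3.12 with the plain diet. Lcn2, which sequesters bacterial iron carriers, was 2.56 with high fat and 2.25 with the plain diet. After scaling S100a8 and S100a9 were both at 0.92 and Lcn2 at 1.15, so no direction can be given for S100a8 and S100a9, and Lcn2 was past 2-fold on that scale alone.

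Tnf, the inflammatory cytokine, was 0.11 with high fat and 1.40 with the plain diet, a difference of -1.29 (2.44-fold lower), and its probes gave -1.54 and -1.03. The monocyte chemokine Ccl2 was 0.36 with high fat and 0.44 with the plain diet, and 0 of 34 chemokines passed 2-fold, with a median of -0.01. Interferon-induced genes had 31 of 41 differences below 0 and a median of -0.20, with Oasl1 the 1 gene at least 2-fold lower, at -0.46 with high fat and 0.71 with the plain diet. The shares over all genes were 57.6% below 0 and 1.17% at least 2-fold lower. Stat4, a transcription factor of cytokine signalling in lymphocytes, was -0.24 with high fat and 1.29 with the plain diet, a difference of -1.52. Lymphocyte and natural killer markers had a median of -0.13 and 0 of 30 members past 2-fold.

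Of 11 genes of MHC class II, whose products display antigen to T cells, 9 were above chow with high fat and 10 with the plain diet. None passed 2-fold, and the median difference was -0.06. H2-Ob was -0.14 with high fat and 0.27 with the plain diet. H2-Aa was 2.77 with high fat and 2.15 with the plain diet, H2-Eb1 was 1.76 and 1.85, and H2-Ab1 was 1.64 and 1.45 in the same order. The largest difference was 0.62, for H2-Aa, and it was 1.49 after scaling, the 1 scaled difference of the list past 2-fold. Saa3, a serum amyloid of macrophages and other cells, was 0.75 with high fat and 1.95 with the plain diet, while Saa2, made in hepatocytes, was 1.72 and 1.68. Saa3 had a difference of -1.20, or -0.79 scaled. The acute phase list held 3 of 28 genes at least 2-fold lower and 0 higher, and 2 lower after scaling, with a median of -0.08, close to that of all genes.

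**Figure D3:**
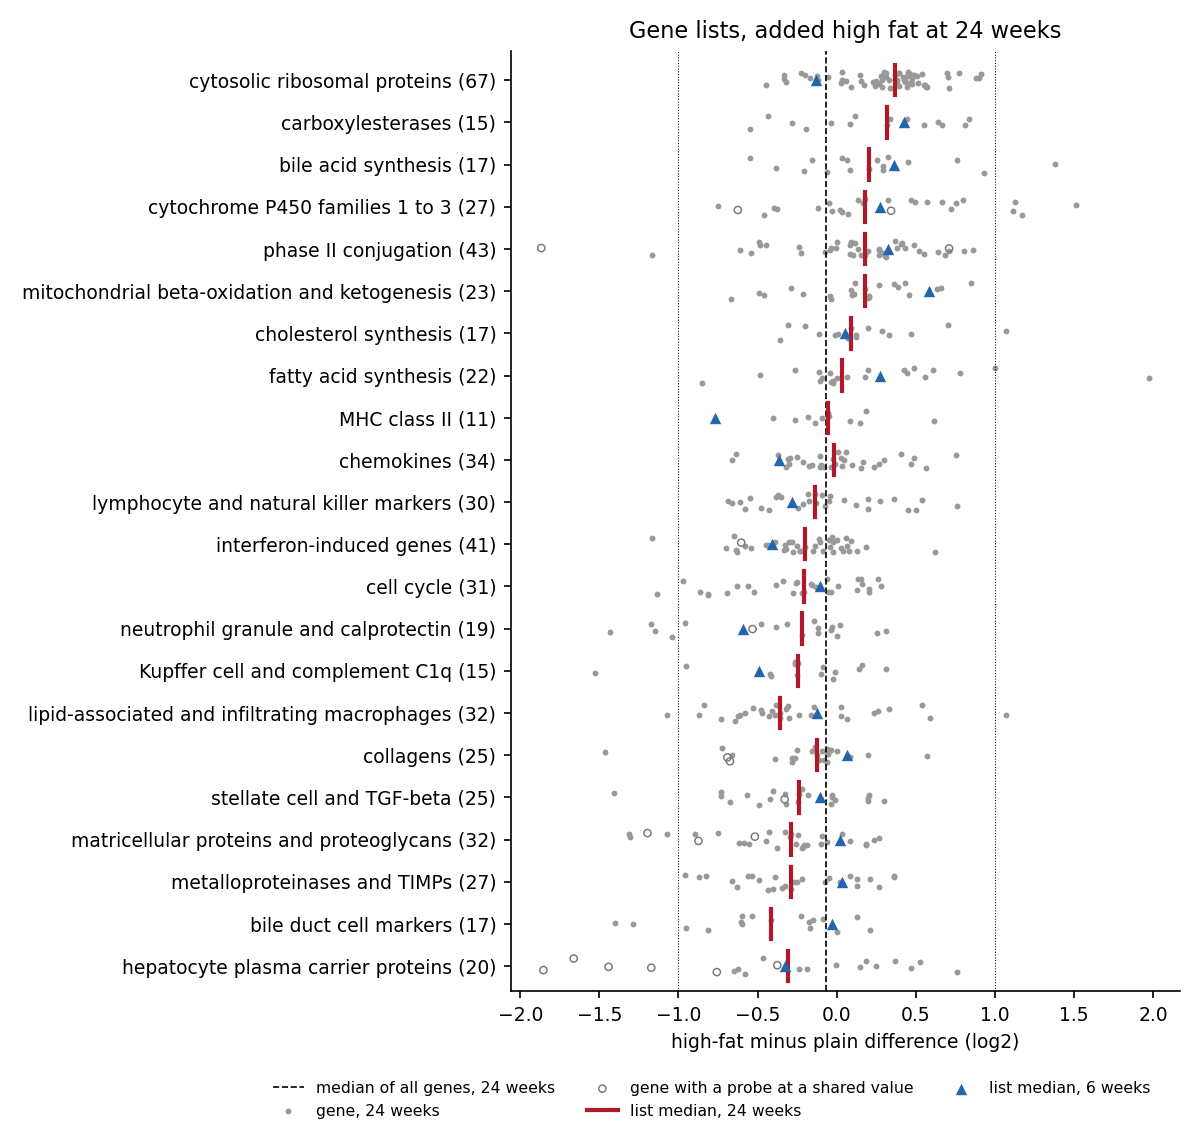
Each row is a gene list with its number of measured genes, and the horizontal axis is the log2 difference of high fat minus plain diet. Grey points are genes at 24 weeks, open points are genes with a probe at a shared value, red bars are list medians at 24 weeks and blue triangles list medians at 6 weeks. The dashed line is the median of all genes at 24 weeks, -0.07, and dotted lines mark 2-fold. Medians run from 0.37 for ribosomal proteins to -0.41 for bile duct cell markers, and few genes of any list lie outside the dotted lines.

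Transcripts of several secreted hepatocyte proteins were lower with high fat, though some of these sizes are uncertain. C6, a terminal complement component with higher expression in male liver, was -1.59 with high fat and 0.19 with the plain diet, a difference of -1.78 (3.44-fold lower). The complement inhibitor gene Serping1 was -1.23 with high fat and -0.19 with the plain diet, a difference of -1.05. The fibrinogen chain genes Fgb and Fgg were at -1.26 and -0.71 with high fat and at 0.19 and 0.56 with the plain diet. Apoc1, an apolipoprotein gene next to Apoe, was -1.13 with high fat and 0.41 with the plain diet, a difference of -1.53. Thus each of these genes was below chow with high fat. The high-fat values of Fgb, Serping1 and Apoc1 lay near -1.28, a value shared by many probes on that array and described below. Their sizes may therefore be no more readable than those of the genes at that value. Hepatocyte complement genes had 2 of 19 at least 2-fold lower and 0 higher, with a median of -0.22, and coagulation genes had 2 of 28 lower and 0 higher, with a median of -0.17. The share of all genes at least 2-fold lower was 1.17%.

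Amino acid genes gave further low values. Bhmt, which remethylates homocysteine with betaine, was -1.41 with high fat and 0.19 with the plain diet, a difference of -1.60 (3.03-fold lower). Ass1, of the urea cycle, was -0.65 with high fat and 0.52 with the plain diet, and Arg2, the mitochondrial arginase, was -0.68 and 0.84. The amino acid and urea list, which does not include Arg2, held 2 of 32 genes at least 2-fold lower and 0 higher, with a median of -0.03. After scaling 3 were lower, with a median of -0.23. Cyp17a1, a steroid hydroxylase, was -0.40 with high fat and 0.91 with the plain diet. Per2, a repressor of the circadian clock, was -1.11 with high fat and 0.17 with the plain diet, the 1 clock gene of 17 past 2-fold. The hour of sampling is not given in the sources used here, and its part in the Per2 value was not tested.

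Among the genes named here, the largest negative difference outside shared values belonged to Atad2, a chromatin-bound ATPase of dividing cells. Atad2 was -1.07 with high fat and 0.88 with the plain diet. Its difference was -1.95, or 3.87-fold lower. Cell cycle genes had 22 of 31 differences below 0 and a median of -0.21, with the cyclin-dependent kinase inhibitor Cdkn1a the 1 gene at least 2-fold lower on the deposited scale, at -0.56 with high fat and 0.57 with the plain diet. Hspb3, a small heat shock protein of muscle, and Cldn5, a tight junction protein of endothelium, had differences of -1.62 and -1.53. The 30 genes of the naming rule also held receptor genes not known for a role in liver, Vmn1r44 at 1.62, Olfr806 at 1.27 and Vmn1r211 at 1.22, and on the lower side Olfr1467 at -1.68 and Olfr63 at -1.40. Among 867 odorant and vomeronasal receptor genes, a group chosen after values were seen, 7 were at least 2-fold higher (0.807%) and 7 lower (0.807%), and the SD of their differences was 0.389. That SD is close to the 0.371 of all genes, so a single gene at 2-fold is not set apart from the spread of such probes.

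The sizes for some abundant hepatocyte transcripts cannot be read. On the high-fat array 14 probes had the deposited value -0.384 (log10), where neighbouring values had a median of 2 probes. On the plain array 63 probes had 0.177, where neighbouring values had a median of 30. On these arrays the values correspond to log2 ratios of -1.28 and 0.59. A total of 16 probes lay at both, and 12 of these also lay at the shared value of the high-fat 6-week array, -0.406. The difference between the shared values is -1.86, so every such probe shows about the same 3.64-fold difference. Among them were 2 of the 3 probes of albumin, Alb, and probes of the thyroid hormone carrier Ttr, the protease inhibitor Serpina1b, the glutathione transferase Mgst1 and the mitochondrial gene CYTB. Apoe, the main ligand for clearance of lipoprotein remnants, had probe differences of -1.83 and -1.55, with both probes at the shared value of the plain array, as did the antioxidant enzyme gene Gpx1 with -1.30. Serpina1e, a close copy of Serpina1b, lay near these values at -1.25 with high fat and 0.49 with the plain diet. Of the genes at least 2-fold lower, 16 had a probe at a shared value, against 0 of those at least 2-fold higher. Of all 13878 genes, 174 had such a probe. The shared value lies below chow on the high-fat array and above chow on the plain array. The split of 16 against 0 therefore follows largely from where these values lie. Plasma carrier protein genes had a median of -0.31 and 4 of 20 lower, but 0.07 and 0 of 14 without the genes at shared values. Leaving these genes out removes mainly negative differences, so the second median gives no direction for the list.

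**Figure D4:**
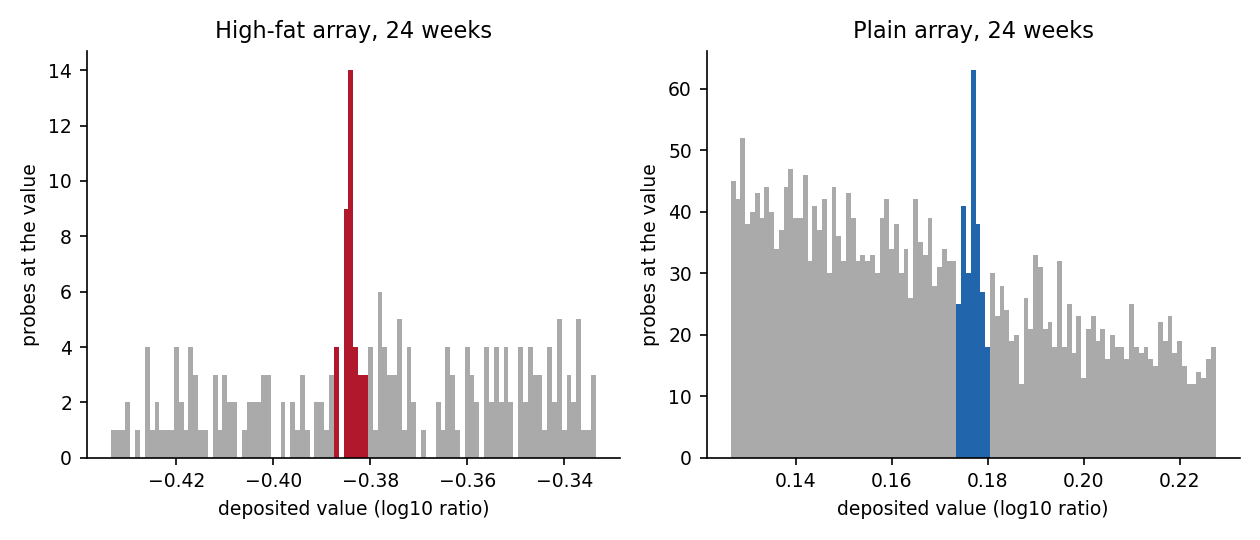
Bars count probes at each deposited log10 ratio near the shared value of the high-fat array (left) and of the plain array (right), both at 24 weeks. Coloured bars lie within 0.003 of the shared value. The peaks of 14 probes at -0.384 and 63 probes at 0.177 stand above neighbouring medians of 2 and 30 probes.

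Values also moved with the letter in the probe identifier. Median differences were -0.11, -0.04 and 0.20 for probes with the letters A, B and C, and -0.08, -0.01 and 0.24 in the same order at 6 weeks. What the letters stand for is not given in the sources used here. Centring each array within 76 groups of probe identifiers, a choice made after these medians were seen, gave 79 higher genes (0.569%) and 112 lower genes (0.807%). In this setting the bile duct median was -0.24, the matricellular median -0.19, the ribosomal median 0.43 and the P450 median 0.27, against -0.02 for all genes. Of 17514 probes with 1 gene, 0.502% were at least 2-fold higher and 1.39% lower, and of 10956 probes with no listed gene 1.71% were higher and 0.639% lower. The part of the identifier groups in any single difference was not tested beyond these values.

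Differences at 6 weeks, from the other 2 arrays, were set beside those at 24 weeks without a test. Of the 59 higher genes 53 had a 6-week difference, and 49 of these were above 0, with a median of 0.96 and 26 at least 2-fold higher. Of the 162 lower genes 157 had a 6-week difference, and 145 of these were below 0, with a median of -0.81 and 61 at least 2-fold lower. Without the genes at shared values, 129 of 141 were below 0, with a median of -0.75 and 46 at least 2-fold lower. None of these genes was 2-fold apart in the opposite direction. Over all 13705 genes measured on the 4 arrays, 45.5% of the 6-week differences were above 0, 1.42% were at least 2-fold higher and 3.14% at least 2-fold lower. The differences at both times correlated across genes, with a Pearson r of 0.64 and a Spearman rho of 0.64. Genes are not independent replicates, and the pairs of arrays share probes, dye orientation and possibly chow RNA.

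Genes with opposite signs at the 2 durations were few. Cyp2c29 had a difference of 1.51 at 24 weeks and -0.21 at 6 weeks, and Akr1c6 had 1.38 and -0.07. Slco1a1, at 1.14 and -0.38, and Cyp2f2, at 1.17 and -0.18, had the same pattern. In each case the high-fat array gave the higher ratio at 24 weeks only. Among lower genes Epcam was -1.40 at 24 weeks and 0.11 at 6 weeks, Cd24a was -1.29 and 0.35, Lum was -1.31 and 0.60, and Tnf was -1.29 and 0.44. At 6 weeks the plain values of Epcam, Cd24a, Lum and Tnf were 0.33, 0.21, 0.05 and -0.33, below their plain values at 24 weeks. Their high-fat values at 6 weeks were 0.44, 0.55, 0.65 and 0.11.

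List medians also differed in size between the durations. Matricellular genes had a median of -0.29 at 24 weeks and 0.02 at 6 weeks, metalloproteinases -0.29 and 0.03, bile duct markers -0.41 and -0.03, and collagens -0.12 and 0.07. The scaled medians at 24 and 6 weeks were -0.22 and 0.01 for matricellular genes, -0.23 and -0.05 for metalloproteinases, -0.23 and 0.20 for bile duct markers, and -0.08 and -0.01 for collagens, so a difference in sign did not hold for metalloproteinases and collagens. Ribosomal protein genes had 0.37 at 24 weeks and -0.13 at 6 weeks, or 0.50 and -0.05 scaled. MHC class II genes had -0.06 at 24 weeks, the level of all genes, and -0.77 at 6 weeks, or 0.00476 and -0.34 scaled. The neutrophil list stood at -0.22 and -0.59, or -0.25 and -0.50 scaled. Mitochondrial fatty acid oxidation genes had 0.18 at 24 weeks and 0.58 at 6 weeks, where 8 of 23 were at least 2-fold higher. P450 families 1 to 3 had 0.18 at 24 weeks and 0.28 at 6 weeks, or 0.30 and 0.18 scaled. At 6 weeks 7 of their 27 genes were at least 2-fold higher and 1 lower, so higher members were not particular to 24 weeks. Carboxylesterases had 0.32 and 0.43, and bile acid synthesis genes 0.21 and 0.37, each with 4 genes higher at 6 weeks. Of all genes at 6 weeks 1.42% were higher and 3.14% lower. Whether any list differed between durations was not tested.

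**Figure D5:**
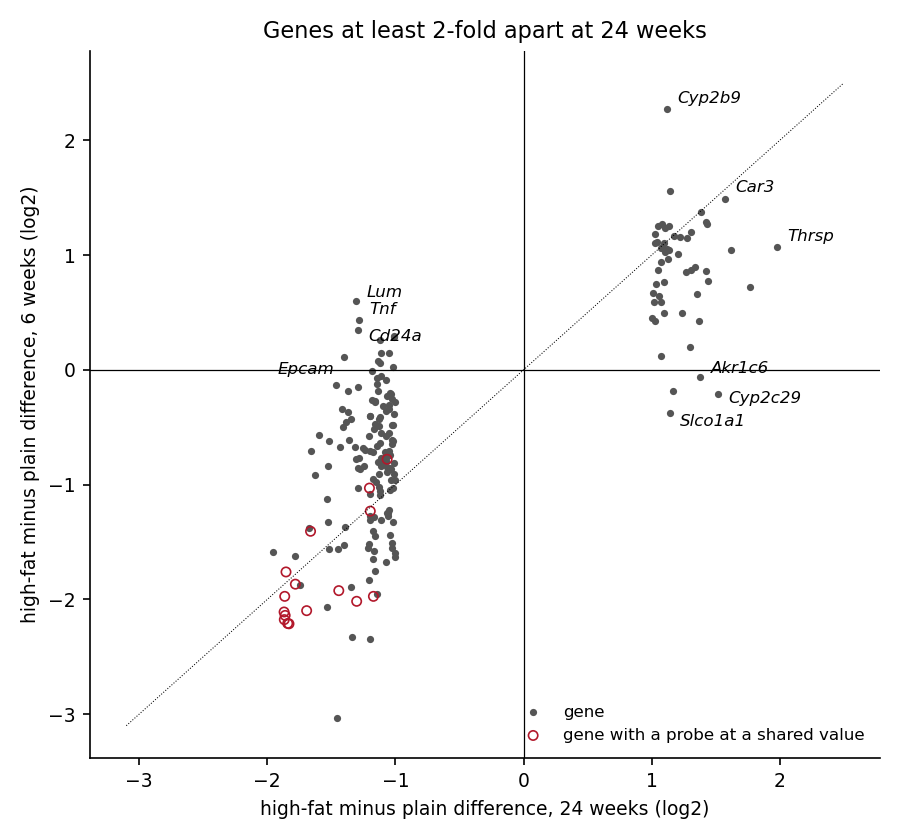
Each point is a gene at least 2-fold apart between diets at 24 weeks, with its log2 difference of high fat minus plain diet at 24 weeks on the horizontal axis and at 6 weeks on the vertical axis. The dotted line marks equal differences, and open red circles are genes with a probe at a shared value. Most points lie in the quadrants of equal sign, 49 of 53 on the higher side and 145 of 157 on the lower side, and Lum, Tnf, Cd24a, Cyp2c29, Akr1c6 and Slco1a1 are among the exceptions.

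The lists of endothelial, erythroid, adipocyte, muscle and pancreas markers held no 2-fold difference, with or without scaling. The bile duct list held none after scaling either. Cldn5, an endothelial gene outside the endothelial list, had a difference of -1.53, so these lists do not cover every gene of their cells. Endothelial markers had a median of -0.11 with 0 of 14 past 2-fold, erythroid markers 0.04 with 0 of 5, adipocyte markers 0.04 with 0 of 6, skeletal muscle markers -0.20 with 0 of 9, and exocrine pancreas markers 0.02 with 0 of 8. Differences in the endothelial list lay between -0.70 and 0.27, and in the muscle list between -0.57 and 0.26. Hepatocyte markers had 1 of 13 at least 2-fold higher and 4 lower, with a median of -0.29. Of the 4, Alb, Ttr and Trf, the iron carrier transferrin, had probes at shared values and Fgb did not, although its high-fat value of -1.26 lay near 1 of them. The higher gene was Pck1. Without the genes at shared values the hepatocyte median was -0.13 over 8 genes. Their part in the differences of other genes was not tested.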

How the data were processed

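Per the series' design text, slides (AceGene Mouse Oligo Chip 30K) were scanned on an Agilent instrument, read with GenePix Pro 4.1 and LOWESS-normalized in GeneSpring 7.2. The values deposited by the authors are signed log ratios, read here as log10 of Cy5 (diet) over Cy3 (chow). The base is an inference: in base 10 the interquartile range of the plain 24-week array is a 42.9% difference in ratio, in base 2 it is 11.3%. Direction follows the dyes in the labels, and centring beyond LOWESS is unknown. Median deposited values were 0.006 and -0.005 on the high-fat and plain 24-week arrays and 0.006 and -0.019 on those of 6 weeks. With 1 array a condition, precision is limited by the number of arrays.

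Values were converted to log2 in Python 3.11.15 with numpy 2.4.6 and pandas 2.3.3, and figures were drawn with matplotlib 3.10.9. Of 28845 probes, 17637 were listed with 1 gene symbol, 64 with several and 11144 were not listed. Symbols were updated to RefSeq (GRCm38.p6), which did not match 252 probes. The procedure was tested on simulated data. A shared value is one whose probe count exceeded the median count of the 41 values centred on it by a set margin. The margin was at least 5 times the square root of the sum of that median and 1. A probe within 0.003 (log10) of a shared value lies at it.

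Named were the 15 highest and 15 lowest genes by the smaller of the unscaled and scaled difference (not predicted, on all 4 arrays, no probe at a shared value), up to 4 members per list at least 2-fold apart or else the 2 largest, members of 5 small lists, and a fixed set of genes. Genes at the edge of the 2-fold count were named besides. The members, gene lists and rules were chosen with earlier results of these data known. Alternatives were scaling, centring, natural logarithms, joining of probes, probe filters, limits on extreme ratios and other folds; centring within probe identifier groups was added after seeing the data.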

Additional observations from a re-analysis of the deposited data

Results flagged for a closer look

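For some named genes and lists the difference at 24 weeks had the opposite sign at 6 weeks; with 1 array a side, the difference between durations was not tested. Higher with high fat at 24 weeks were Cyp2c29 (1.51, against -0.21 at 6 weeks), Akr1c6 (1.38 and -0.07), Slco1a1 (1.14 and -0.38) and Cyp2f2 (1.17 and -0.18). Lower at 24 weeks were Lum (-1.31 and 0.60), Epcam (-1.40 and 0.11), Cd24a (-1.29 and 0.35), Cdkn1a (-1.13 and 0.07) and Tnf (-1.29 and 0.44). Several of these 6-week values lie within the pooled SD of 0.363 between probes of a gene. Lists were flagged where medians of opposite sign were both at least 0.1 in size. These were cytosolic ribosomal proteins (0.37 at 24 weeks and -0.13 at 6 weeks), apolipoproteins (-0.19 and 0.16) and female-biased liver genes (-0.14 and 0.43). Coagulation genes (-0.17 and 0.13) and hepatocyte markers (-0.29 and 0.10) were flagged as well. Other lists had opposite signs with a smaller median and are left out here. After scaling the signs were the same at both durations for apolipoproteins (-0.27 and -0.06), coagulation genes (-0.08 and -0.09) and hepatocyte markers (-0.29 and -0.09), and opposite for ribosomal proteins (0.50 and -0.05) and female-biased genes (-0.13 and 0.41).

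Probes with no listed gene held a signal that the gene comparison does not use. Of 10956 such probes with a value on both 24-week arrays, 187 (1.71%) were at least 2-fold higher with high fat and 70 (0.639%) lower, against 88 (0.502%) and 243 (1.39%) of the 17514 probes with 1 gene. Probes with the letter C in the identifier, whose median difference was 0.20, were higher in 1.99% and lower in 0.303% of cases. The part of the letters in these counts was not tested.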

How the results depend on the processing

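Fold counts rest on the base of the logarithm and on the fold chosen. Read as natural logarithms, 0 genes were 2-fold higher and 0 lower. At 1.5-fold 455 genes were higher and 1035 lower, and at 3-fold 5 and 17. Under the other alternatives the higher count lay between 52 and 87 and the lower count between 112 and 236. The share of genes closer to chow with high fat was 57.6% of the higher and 59.9% of the lower genes, but 19.0% and 23.9% after scaling, and 50.9% of the lower genes with centring within probe identifier groups; the cause was not tested. The shares with the same sign at 6 weeks lay between 86.3% and 95.9%. Of 72 named genes at least 2-fold apart, 58 stayed so after scaling, 67 with group centring and 63 with extreme ratios limited, and none of the 72 changed sign under any alternative. Scaling turned the sign of the median of 13 of 53 lists, 4 of them by a median of at least 0.1 before scaling. No paired analysis was possible because the difference at 24 weeks has 1 array a side; pairing the diets over both durations would give a mean effect of high fat, not the difference at 24 weeks.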

Other observations

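The largest difference of any probe belonged to a probe with no listed gene, AGmmC130607, at 4.55 with high fat and -0.55 with the plain diet, a difference of 5.11. It had no value on the high-fat 6-week array. A second unlisted probe, AGmmC141123, was 2.78 with high fat and 0.01 with the plain diet at 24 weeks, and its difference at 6 weeks was 1.96. The lowest unlisted probes were AGmmC110715, with a difference of -1.88, and AGmmA010716, with -1.87, the second of them at the shared values of both 24-week arrays. These probes were chosen after their values were seen, and no gene name was available for them here.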
